A study of Mus musculus with 50 samples.

Results

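Angiotensin II (Ang II), the peptide hormone that raises blood pressure, was compared between hearts that overexpress LARP6 and normal hearts by asking whether each gene responded differently to it in the 2 genotypes. The quantity described is the response in transgenic (Tg) hearts minus the response in wild-type (WT) hearts, called the difference of responses below. It was taken from 48 of the series' 50 left ventricles: 24 WT hearts (11 with saline, 13 with Ang II) and 24 Tg hearts (12 with each). Genotype and treatment were read from the letters of each library's column name, and libraries 329 and 847 were left out because their letters and their sample titles name different genotypes. All mice were of the C57BL/6J background and 40 weeks old. WT animals were littermates of the transgenic ones. Pumps gave saline to the control groups and Ang II, at 1000 ng/kg per minute, to the others, and hearts were taken at 21 days. The transgene was directed to cardiomyocytes, per the series title, and its promoter and founder line were not given in the sources used here. Both sexes were present in every group, with 5 female and 6 male WT saline hearts, 7 and 6 WT Ang II, 6 and 6 Tg saline, and 7 and 5 Tg Ang II. The labels do not state that each library came from its own animal, but every library number occurred once, and p values measure the spread between libraries.

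LARP6 is an RNA-binding protein known for binding a stem-loop near the start codon of collagen I and III messenger RNAs, whose products form scar tissue. Ang II acts on the heart through its type 1 receptor and through the higher pressure against which the ventricle pumps. A loaded ventricle turns on a fetal program, with natriuretic peptides, slow myosin and skeletal actin, and its fibroblasts lay down matrix. A difference of responses depends on the scale on which it is taken. On the log2 scale it compares fold changes, so a gene that already stands high in Tg saline hearts must gain more transcripts to show the same fold. On the linear scale it compares the transcripts gained or lost.

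Levels are given as scaled FPKM, which are fragments counted per length of transcript and per size of library, divided by a factor per library that sets a typical gene equal. Total counts per library ranged from 53877400 to 89115400, and mitochondrially encoded transcripts made up 28.1% to 38.8% of them. No 2 libraries of a group agreed within counting error. Larp6, which checks the genotype, ranged from 5.59 to 63.5 scaled FPKM over WT saline and from 19.6 to 62.7 over WT Ang II libraries. It ranged from 442 to 1625 over Tg saline and from 587 to 1177 over Tg Ang II libraries, so no Tg library overlapped a WT one. Its own response did not pass the test in either genotype (log2 fold changes 0.21 ± 0.23 SE in WT and -0.09 ± 0.22 in Tg), and the difference of responses was -0.30 ± 0.32 (edgeR, adjusted p = 0.83). Markers of heart muscle cells dominated every library, with a summed level between 16030 and 21524 scaled FPKM over 13 of 13 genes. None of 10 lymphocyte markers and none of 10 markers of fat, nerve and mesothelium reached the level for testing, and 2 of 7 atrial markers did, with sums of at most 7.22.

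On the log2 scale, 3 of 11608 genes tested (0.0258%) had a difference of responses that passed the test (edgeR quasi-likelihood, adjusted p under 0.05). They were Fbln1 and Mybpc2, lower in Tg (0.0172% of genes), and Tmem30a, higher in Tg (0.00861%). Another 5 genes, 8 in all (0.0689%), had an adjusted p under 0.1. At an unadjusted p under 0.05 there were 932 genes (8.03%), of which 421 (3.63%) were higher and 511 (4.4%) lower in Tg. On the linear scale, 3 of 11603 genes (0.0259%) passed. Fbln1 and Tmem30a were again among them, and the third was Ttc7. At an unadjusted p under 0.05 there were 1002 genes (8.64%). DESeq2, a second count test, called 25 genes on the log2 scale, 19 of them lower in Tg, and the 25 held all 3 of the genes above. They also held Gm49909, Gm15564 and Gm20716, with extreme log2 values of -14.9, 25.2 and -13.5 in DESeq2. For these the adjusted p of edgeR was 0.79, 0.50 and 0.68. Each response alone passed far more often: 1752 genes (15.1%) in WT, 895 higher and 857 lower, and 943 genes (8.12%) in Tg, 517 higher and 426 lower. The median standard error was 0.071 for the WT response, 0.070 for the Tg response and 0.099 for their difference, on the log2 scale.

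**Figure D1:**
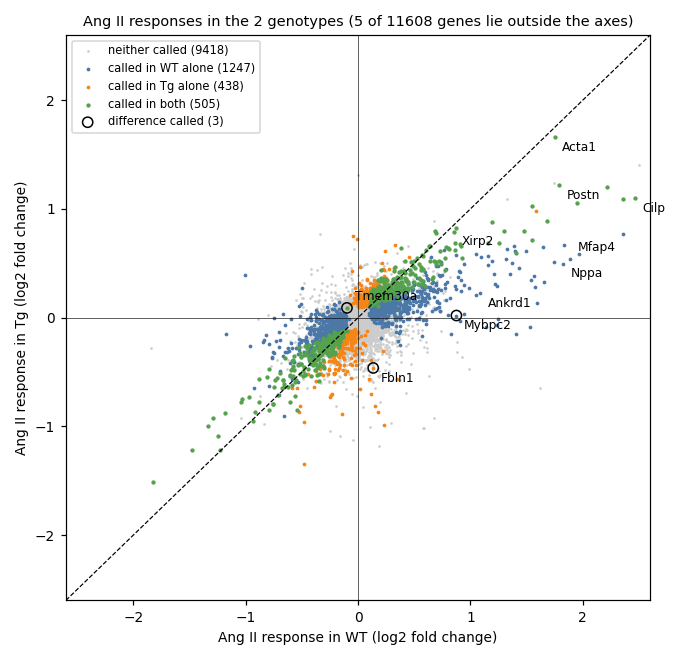
Each point is 1 of the genes tested, with its log2 response to Ang II in WT hearts on the x axis and in Tg hearts on the y axis, coloured by the genotypes in which it was called. The dashed line marks equal responses, 5 of 11608 genes lie outside the axes, and the 3 ringed genes are those with a called difference. Among the WT rises on the right, Acta1 lies near the line, and Nppa, Ankrd1, Mfap4 and Cilp lie below it.

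Fbln1, which encodes fibulin-1, a secreted glycoprotein of basement membranes and elastic fibres, fell under Ang II in Tg hearts. The gene (ENSMUSG00000006369) lies on the plus strand of chromosome 15, from 85205949 to 85286535 (GRCm38). Its lowest, median and highest levels were 11.4, 13.7 and 15.3 scaled FPKM in WT saline hearts and 10.6, 15.1 and 19.2 in WT Ang II hearts. In Tg hearts they were 16.6, 20.5 and 28.2 under saline and 11.6, 17.5 and 20.8 under Ang II. All 12 Tg saline libraries lay above all 11 WT saline libraries, while Tg Ang II and WT Ang II libraries overlapped over most of their range. The log2 response was 0.14 ± 0.07 in WT (adjusted p = 0.19) and -0.46 ± 0.07 in Tg (adjusted p = 2.6e-05). The difference was -0.60 ± 0.10 (adjusted p = 0.0023). On the linear scale, Tg hearts lost 5.73 scaled FPKM and WT hearts gained 1.27, a difference of -7.01 ± 1.12 (adjusted p = 0.0016). By the rule used here the response was gained in Tg, since it was called there and not in WT.

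Mybpc2, which encodes the fast skeletal form of myosin-binding protein C, rose under Ang II in WT and not in Tg hearts. The gene (ENSMUSG00000038670) lies on the minus strand of chromosome 7, from 44501699 to 44524656. Levels in WT hearts were 2.72, 3.48 and 6.51 scaled FPKM (lowest, median, highest) under saline and 4.13, 6.74 and 11.5 under Ang II. In Tg hearts they were 8.08, 10.4 and 12.9 under saline and 8.20, 9.92 and 13.5 under Ang II, so the Tg groups overlapped almost completely and stood above all WT saline libraries. The log2 response was 0.88 ± 0.12 in WT (adjusted p = 3.3e-06) and 0.02 ± 0.12 in Tg (adjusted p = 0.95), and their difference was -0.86 ± 0.17 (adjusted p = 0.028). This was the 1 gene of the blunted class. In transcripts the gain was 3.08 scaled FPKM in WT and 0.145 in Tg, a difference of -2.93 ± 0.94 that missed the threshold (adjusted p = 0.36).

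Tmem30a, which encodes the partner subunit of the flippases that move phospholipids across membranes, moved in opposite directions. The gene (ENSMUSG00000032328) lies on the minus strand of chromosome 9, from 79768943 to 79793507. Its lowest, median and highest levels were 12.4, 13.7 and 14.3 scaled FPKM in WT saline and 11.8, 12.4 and 13.7 in WT Ang II hearts. They were 12.2, 12.7 and 13.7 in Tg saline and 12.8, 13.6 and 14.5 in Tg Ang II hearts. All 4 groups overlapped, and the changes were small beside those of the other called genes. The log2 response was -0.10 ± 0.03 in WT (adjusted p = 0.0074) and 0.09 ± 0.03 in Tg (adjusted p = 0.023), with a difference of 0.19 ± 0.04 (adjusted p = 0.028) and a linear difference of 1.72 ± 0.34 scaled FPKM (adjusted p = 0.037). It was the 1 gene of 11608 that was called in both genotypes with opposite signs. Ttc7, named after its values were seen, fell in WT by 0.37 ± 0.06 and had a Tg response of -0.03 ± 0.06. Its levels were low, with medians of 2.98 and 2.37 scaled FPKM in WT saline and Ang II hearts and 1.84 and 1.81 in Tg. Its linear difference was 0.649 ± 0.131 scaled FPKM (adjusted p = 0.043) and its log2 difference 0.34 ± 0.08 (adjusted p = 0.12). With a term for runs of neighbouring library numbers in the model, none of the log2 calls passed: the adjusted p was 0.17 for Fbln1, 0.17 for Mybpc2 and 0.32 for Tmem30a. Leaving out 1 library at a time ended the log2 call of Mybpc2 in 9 of 48 fits, that of Tmem30a in 5 and that of Fbln1 in none.

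**Figure D2:**
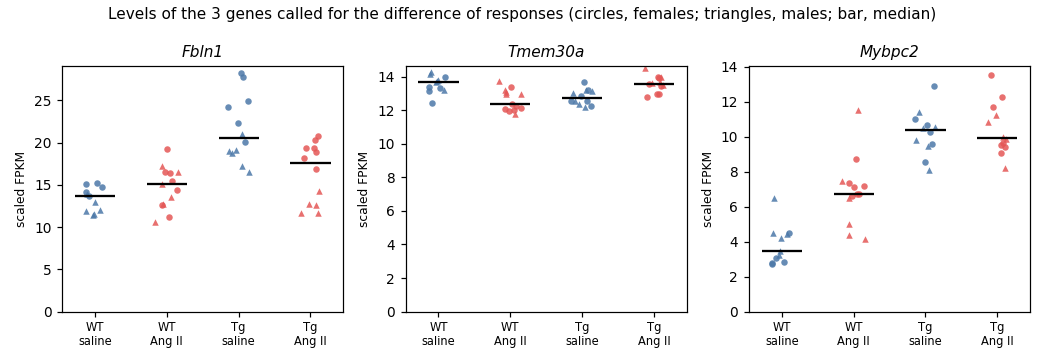
Scaled FPKM (y axis, from 0) of Fbln1, Tmem30a and Mybpc2 in each library of the 4 groups, with blue for saline and red for Ang II, circles for females, triangles for males and a bar at the median. Fbln1 is lower in Tg Ang II than in Tg saline hearts, with medians of 17.5 and 20.5, while the median of Mybpc2 moves from 3.48 to 6.74 in WT and from 10.4 to 9.92 in Tg.

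The genes next in line by p value missed the threshold with edgeR, whose values are given here. DESeq2 called 5 of those that follow: Tex264 (adjusted p = 0.0095), Mfap4 (0.024), Myl12a (0.024), Adprhl1 (0.032) and Gm39214 (0.046). Tex264 also passed with a minimum FPKM of 5 (0.036) and with quantile normalization (0.043). Mfap4, a microfibril-associated matrix protein, had medians of 3.91 and 13.8 scaled FPKM in WT saline and WT Ang II hearts and 15.3 and 22.9 in the Tg groups. It rose in WT (1.89 ± 0.22, adjusted p = 4.0e-07) and missed the threshold in Tg (0.54 ± 0.21, adjusted p = 0.096), and the difference was -1.34 ± 0.30 (adjusted p = 0.094). On the linear scale its difference was -3.28 ± 3.21 scaled FPKM. Tex264, a receptor for autophagy of the endoplasmic reticulum, had a difference of -0.26 ± 0.06 (adjusted p = 0.071), with responses of 0.20 in WT and -0.05 in Tg. Myl12a, a regulatory light chain of nonmuscle myosin, had medians of 115 and 152 in WT and 168 and 190 in Tg, and a difference of -0.31 ± 0.07 (adjusted p = 0.12). Adprhl1, a heart-restricted protein related to ADP-ribosyl hydrolases, is of another kind, because its saline levels were the same in both genotypes within their spread (log2 difference 0.00). Its medians were 54.5 and 70.1 in WT and 54.9 and 56.1 in Tg, which gave responses of 0.37 ± 0.05 and 0.07 ± 0.05, a log2 difference of -0.30 ± 0.07 (adjusted p = 0.13) and a linear difference of -13.2 ± 2.96 (adjusted p = 0.12). Hcn2, a pacemaker channel subunit, showed the same form at lower levels, with responses of 0.70 ± 0.10 and 0.15 ± 0.10 and a linear difference of -1.58 ± 0.42 (adjusted p = 0.20). Twf2 and Tmem50a had log2 differences of -0.26 and -0.23 (adjusted p = 0.18 for both). Gm39214 had one of -0.43 (adjusted p = 0.14).

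In the other direction, several genes rose in Tg hearts and missed the threshold in WT. Map3k7, the kinase TAK1 of the TGF-beta and inflammatory pathways, had responses of -0.02 ± 0.03 in WT and 0.18 ± 0.03 in Tg, a difference of 0.21 ± 0.05 (edgeR, adjusted p = 0.12). DESeq2 called it (adjusted p = 0.024), and so did edgeR without replicate 3 of the WT Ang II females (0.026). Erbin, Zfp91 and Usp47 likewise rose in Tg by 0.18, 0.24 and 0.22 with WT values of -0.01, 0.05 and 0.06. Their differences were 0.19, 0.19 and 0.16, with adjusted p values of 0.25, 0.26 and 0.35. Pkia, an inhibitor of protein kinase A, fell in WT by 0.27 ± 0.05 and had a Tg response of 0.00 ± 0.05. Its saline levels did not pass the test between genotypes (log2 -0.07), and the difference of responses was 0.27 ± 0.07 (adjusted p = 0.20). Ak4, Mmadhc, Uap1 and Sp3 completed the 10 highest with differences of 0.37, 0.17, 0.19 and 0.24 (adjusted p between 0.25 and 0.27). By the linear rule, Pabpc4 had gains of 13.7 scaled FPKM in WT and 4.99 in Tg, called in both, and a difference of -8.75 ± 2.14 (adjusted p = 0.16). Scn4b, a sodium channel subunit, fell in WT from a median of 10.4 to 6.37, and its Tg medians were 2.27 and 1.66. Cxcl12, a chemokine, fell in WT from 24.2 to 18.3, and its Tg medians were 13.7 and 13.8. Scn4b fell by 4.36 scaled FPKM in WT hearts, more than the whole Tg saline median. The linear differences were 3.79 and 5.75, and neither passed (adjusted p = 0.22 and 0.20). Rapsn and Tmem86a had linear differences of -1.20 and -1.98 (adjusted p = 0.22 for both).

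Fold changes to Ang II were smaller in Tg hearts over most genes with a large WT response, although single genes seldom passed. Of 153 genes that rose by at least 1.5-fold in WT, 148 (96.7%) had a smaller log2 response in Tg, with medians of 0.80 in WT and 0.39 in Tg. Choosing genes by their WT response favours genes whose WT value was high by chance, so the reverse choice was also made. Of 37 genes that rose by at least 1.5-fold in Tg, 27 (73.0%) still had the smaller response in Tg, and the medians were 0.91 in WT and 0.72 in Tg. In both choices the Tg median was the lower one for rises of that size. The share chosen in Tg was 57.7% with a term for runs of library numbers, 100% in females alone and 27.3% in males alone. Females alone had only 7 genes called in Tg at any size, and males alone had 459, so the female share rests on very few genes. For falls the order depended on the choice: the 69 falls chosen in WT had medians of -0.74 in WT and -0.54 in Tg, and the 45 chosen in Tg had -0.60 and -0.78. With no minimum of size, the 895 genes called higher in WT had medians of 0.28 and 0.16, and the 517 called higher in Tg had 0.16 in WT and 0.22 in Tg, so small responses followed the choice. Counted in transcripts, 106 of the 153 WT rises (69.3%) were smaller in Tg, but only 7 of the 37 Tg rises (18.9%). Over all genes tested, 56.7% had a smaller log2 response in Tg and the median difference was -0.004.

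Of the 1752 genes called in WT, 504 were called in the same direction in Tg and are termed kept (4.34% of all tested), 269 higher and 235 lower. For 455 of them (90.3% of the kept, 3.92% of all tested) the 95% interval of the difference lay within 1.5-fold either way, as it did for 86% of all genes. Another 1247 were called in WT and not in Tg, but for 971 of those (77.9%) the interval also lay within 1.5-fold, so the missing call in Tg does not show a large difference. A further 438 were called in Tg and not in WT. By these rules 11101 of the 11608 genes (95.6%) stayed unresolved as to class.

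Natriuretic peptides, Ankrd1 and Myh7 had smaller fold values in Tg, and no difference on either scale passed the test. On the linear scale Nppa, Ankrd1 and Nppb had gains in both genotypes, with wide errors. Myh7 had a gain in WT and a slightly negative value in Tg. Nppa, which encodes atrial natriuretic peptide, ranged from 89.7 to 202 scaled FPKM in WT saline hearts (median 117) and from 194 to 1143 in WT Ang II hearts (median 459). In Tg hearts it ranged from 513 to 2062 under saline (median 1007) and from 674 to 2933 under Ang II (median 1594). Every Tg saline heart thus stood above the WT Ang II median, and the 2 Tg groups overlapped. The response was 1.83 ± 0.23 in WT (adjusted p = 1.3e-06) and 0.50 ± 0.23 in Tg (adjusted p = 0.18), a difference of -1.33 ± 0.32 that missed the threshold (adjusted p = 0.13). In transcripts the gain was 333 scaled FPKM in WT and 432 in Tg, a difference of 99.6 ± 224 with a 95% interval from -351 to 550. Ankrd1, a stretch-responsive protein of the sarcomere and nucleus, had medians of 248 and 521 in WT and 1271 and 1444 in Tg. Its difference was -0.86 ± 0.25 (adjusted p = 0.26), with linear gains of 270 and 217. Nppb, which encodes B-type natriuretic peptide, had medians of 81.8 and 115 in WT and 208 and 316 in Tg, responses of 0.86 and 0.29, and linear gains of 67.1 and 62.6. Myh7, the slow myosin heavy chain, had medians of 141 and 204 in WT and 630 and 624 in Tg. It rose in WT (0.54 ± 0.17, adjusted p = 0.024) and its Tg value was 0.00 ± 0.17, a difference of -0.55 ± 0.24 (adjusted p = 0.57), and its linear values were 70.0 and -3.72. One library, replicate 7 of the WT Ang II females, was the highest of its sex and group for Nppa (1143), Ankrd1 (1047) and Myh7 (553), and without it the differences were -1.16, -0.74 and -0.36.

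Acta1 and Xirp2 rose in both genotypes by nearly the same fold. Acta1, skeletal actin, had medians of 94.9 and 289 scaled FPKM in WT and 102 and 307 in Tg. Every Ang II library of either genotype lay above both saline medians, and the 2 saline groups overlapped. The response was 1.75 ± 0.23 in WT (adjusted p = 3.3e-06) and 1.66 ± 0.23 in Tg (adjusted p = 1.8e-05), with a difference of -0.09 ± 0.33 (95% interval -0.75 to 0.58). Xirp2, a protein that binds actin filaments at intercalated discs, had medians of 31.0 and 47.5 in WT and 31.6 and 51.6 in Tg, with responses of 0.86 and 0.79 and a difference of -0.07 ± 0.15 (-0.37 to 0.24). Neither passed the test between genotypes under saline (0.12 and 0.09, adjusted p = 0.73 and 0.51). Desmin (Des), the intermediate filament of muscle, did rise with the transgene (0.39, adjusted p = 6.1e-06) and also kept its response, with medians of 360 and 458 in WT and 453 and 590 in Tg. Its responses of 0.42 and 0.41 differed by 0.00 ± 0.09, and the linear gains were 116 and 151. Of 15 genes of the load and fetal program, 12 rose under Ang II in WT, against 7.71% of all genes, and 8 rose in Tg, against 4.45%. The median response was 0.54 in WT and 0.32 in Tg, the median difference -0.09, and 6 of the 15 were kept.

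The starts of 2 genes with a smaller Tg fold, Nppa and Ankrd1, and of 2 kept genes, Acta1 and Xirp2, are shown because all 4 rose under Ang II in WT and differ in their Tg fold. Each line gives the 150 bases before the RefSeq start (GRCm38.p6), on the gene's own strand. They lie at chr4:148000572-148000721 (plus) for Nppa, chr19:36119845-36119994 (minus) for Ankrd1, chr8:123894776-123894925 (minus) for Acta1 and chr2:67445852-67446001 (plus) for Xirp2. Capitals mark the letters of 4 elements. GGAATG (the MCAT element of TEAD factors) and AGATAA (a form of the GATA element) were both searched on either strand. The others were the CArG box of serum response factor, and TATAAA on the gene's strand.
Nppa: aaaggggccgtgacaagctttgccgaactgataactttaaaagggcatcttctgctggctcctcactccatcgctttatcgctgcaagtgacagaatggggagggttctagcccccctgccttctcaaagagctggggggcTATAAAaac
Ankrd1: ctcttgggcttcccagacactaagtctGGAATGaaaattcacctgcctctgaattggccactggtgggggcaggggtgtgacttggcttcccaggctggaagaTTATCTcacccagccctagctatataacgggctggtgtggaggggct
Acta1: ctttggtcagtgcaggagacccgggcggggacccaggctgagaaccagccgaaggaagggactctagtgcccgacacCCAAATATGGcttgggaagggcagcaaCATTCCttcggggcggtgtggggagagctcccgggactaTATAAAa
Xirp2: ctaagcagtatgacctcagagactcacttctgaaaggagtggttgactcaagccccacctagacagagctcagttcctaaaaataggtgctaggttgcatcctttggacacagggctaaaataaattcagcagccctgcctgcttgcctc
Within this window Nppa held TATAAA, Ankrd1 held 1 MCAT and 1 GATA match, Acta1 held a CArG box, 1 MCAT match and TATAAA, and Xirp2 held none of the 4. No matches overlapped. Among 27025 windows of the same length, the MCAT letters occurred in 7.64%, GATA in 5.76%, the CArG box in 0.884% and TATAAA in 5.26%. A match here is a match of letters, and the window is short. Other forms of the GATA element were not searched, such as TGATAA, which the Nppa line holds unmarked.

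**Figure D3:**
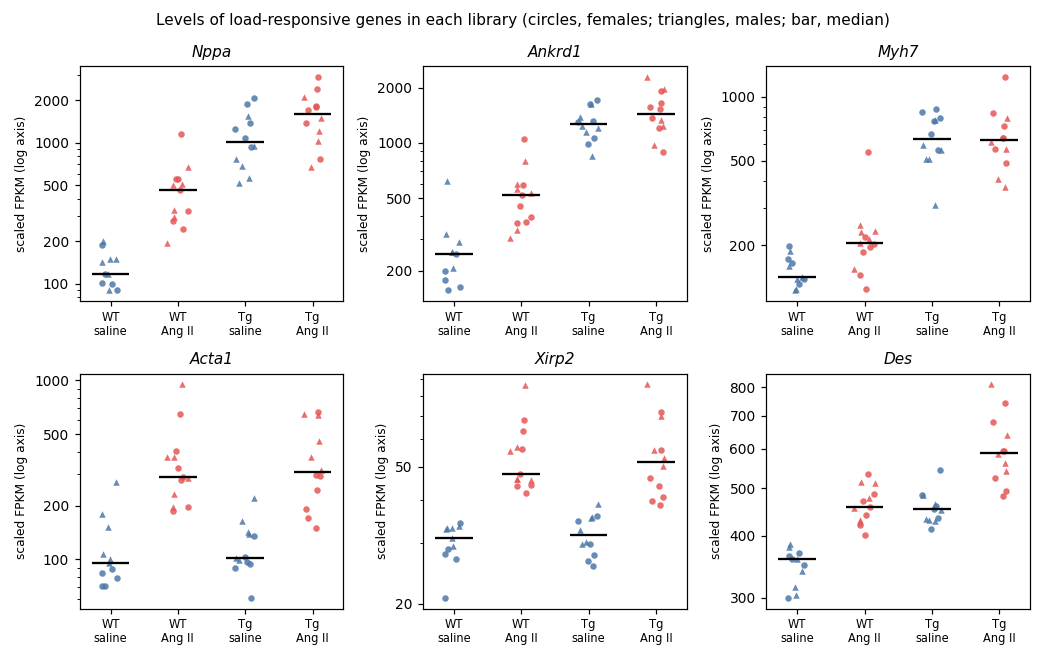
Scaled FPKM (log axis) of 6 load-responsive genes in each library of the 4 groups, with circles for females, triangles for males and a bar at the median. Nppa, Ankrd1 and Myh7 are already high in Tg saline hearts (medians 1007, 1271 and 630), whereas Acta1 and Xirp2 have overlapping saline levels and overlapping Ang II levels in the 2 genotypes, and Des moves up with genotype and with Ang II.

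Other kept genes with small p values in both genotypes were Sra1, a noncoding and protein-coding coactivator gene (0.46 and 0.44), Otulin, a deubiquitinase of linear ubiquitin chains (0.50 and 0.53), Cfl2, muscle cofilin (0.23 and 0.26), and Pdlim5, a Z-disc adaptor (0.33 and 0.30). Aldh2, mitochondrial aldehyde dehydrogenase, fell in both, by 0.42 and 0.40. Their differences of responses lay between -0.03 and 0.04, with adjusted p values between 0.89 and 0.98. In Otulin the fold was kept on a base that the transgene had raised (medians of 6.29 and 8.82 in WT, 11.5 and 16.4 in Tg), so its linear gain was 2.61 scaled FPKM in WT and 5.20 in Tg, a difference of 2.59 ± 0.90 (adjusted p = 0.42).

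To place each gene between the 2 scales, the Tg Ang II level was set against 2 computed levels: that from adding the WT gain to the Tg saline level, and that from multiplying the Tg saline level by the WT fold. Nppa reached 107% of the additive level (1564 against 1464 scaled FPKM) and 38.9% of the multiplicative one (4022). Ankrd1 reached 96.6% and 56.9%, and Nppb 98.7% and 67.6%. For Acta1 the 2 levels nearly coincide, and it reached 104% and 100% of them. Myh7 reached 89.7% of the additive level, and Postn, at 135%, lay above it. Over all 568 genes that both the transgene alone (40.6% of genes called, 20.3% higher and 20.3% lower) and Ang II in WT raised, the median was 95.8% of the additive and 89.5% of the multiplicative level. Over the 518 that both lowered, the medians were 115% and 108%. The test seldom settled the class of a gene. Of these 1086 genes, 2 were less than additive, Tmem30a and Ttc7, both lowered, and 1, Thbs2, was additive within 50% of the WT change. The other 1083 stayed unresolved by this linear rule, which made no comparison with the multiplicative level. The additive and multiplicative levels share the Tg saline and WT libraries with the responses, so these percentages are descriptions.

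**Figure D4:**
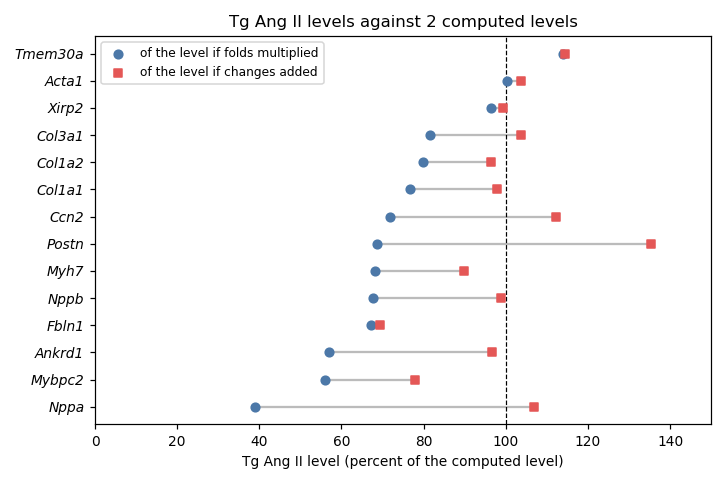
For each of 14 genes, the Tg Ang II level is drawn as a percent (x axis, from 0) of the multiplicative level (blue circles) and of the additive level (red squares). Nppa lies at 38.9% and 107%, the fibrillar collagens lie near 100% of the additive level, and Fbln1 lies at 69.3% of the additive and 67.1% of the multiplicative level.

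Fold changes of collagen and matrix genes were mostly smaller in Tg. Among the members of the matrix lists, edgeR called the difference of Fbln1 alone, and DESeq2 those of Fbln1 and Mfap4. Col1a1 had medians of 6.81 and 12.9 scaled FPKM in WT and 13.3 and 19.7 in Tg. It rose in both, by 0.93 ± 0.18 and 0.55 ± 0.18 (adjusted p = 4.3e-04 and 0.048), with a difference of -0.38 ± 0.25 (adjusted p = 0.72) and linear gains of 6.76 and 6.33. Col1a2 rose in WT (0.72, adjusted p = 8.8e-04) and its Tg value was 0.39 (adjusted p = 0.097). Col3a1 rose in WT (0.87, adjusted p = 0.012) and its Tg value was 0.58 (adjusted p = 0.13), with linear gains of 7.41 and 8.33. The WT Ang II medians of all 3, at 12.9, 7.23 and 15.1, lay close to the Tg saline medians of 13.3, 8.26 and 15.7. Of 6 fibrillar collagen genes tested, 4 rose in WT and 2 in Tg (7.71% and 4.45% of all genes), and the median difference was -0.23. That median was -0.10 without replicate 7 of the WT Ang II females or replicate 2 of the Tg saline females, -0.13 without replicate 1 of the WT Ang II males and -0.37 without replicate 5 of the Tg Ang II males. Col1a1, Col1a2 and Col3a1 encode the collagens I and III whose transcripts LARP6 is known to bind. The counts measure the amount of these transcripts and not their translation.

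Matricellular and myofibroblast genes had a median response of 1.10 in WT and 0.51 in Tg, and 14 of 15 had a negative difference (median -0.57), against 5950 of 11608 of all genes. In WT 11 rose, against 7.71% of all genes, and in Tg 5, against 4.45%. Postn, periostin of activated fibroblasts, had medians of 3.40 and 9.22 scaled FPKM in WT and 10.7 and 23.2 in Tg. It rose in both (1.79 and 1.22), with a fold difference of -0.57 ± 0.36 but a linear difference of 7.01 ± 3.99 (adjusted p = 0.64), so its 2 scales pointed in opposite directions. Cilp, a secreted matrix protein, did the same, with medians of 1.52 and 7.47 in WT and 8.44 and 16.1 in Tg, a log2 difference of -1.37 ± 0.42 (adjusted p = 0.32) and a linear one of 2.23 ± 3.08. Ltbp2, a latent TGF-beta binding protein, rose by 2.36 and 1.09 from very low levels. Ccn2, connective tissue growth factor, rose in WT (0.90, adjusted p = 3.2e-04), and its Tg value was 0.43 (adjusted p = 0.11), with linear gains of 12.2 and 21.5. Comp had responses of 1.58 and 0.28. Without replicate 7 of the WT Ang II females, which held the highest Postn (36.9) and Ccn2 (51.4) of its group, the log2 differences were -0.30 for Postn, -0.35 for Ccn2 and -1.06 for Cilp.

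Among elastic fibre genes, 9 of 14 differences were negative, against 5950 of 11608 of all genes, with a median of -0.13. Mfap2 rose in WT (0.69) with a Tg value of 0.08. Proteoglycans had a median difference of -0.26 over 9 genes, 3 of which rose in WT and none in Tg (7.71% and 4.45% of all genes). Fmod, fibromodulin, had responses of 2.36 and 0.77, and Aspn, asporin, 0.70 and 0.30. Ogn, osteoglycin, had a WT value of -0.02 and fell in Tg by 0.31 (adjusted p = 0.020). Collagen-processing enzymes had a median difference of -0.09. Of 17 enzymes, 9 rose in WT, among them Pcolce and Loxl1 (0.36 and 0.57, Tg values 0.12 and 0.15), and 1 rose in Tg, against 7.71% and 4.45% of all genes. Within the list of other stretch and injury genes, 8 of 14 rose in WT, against 7.71% of all genes, and 1 in Tg, near the 4.45% of all genes, with a median difference of -0.53. Ankrd23 had responses of 0.92 and 0.35, Mt2, a metallothionein, 1.32 and 0.54, and Tnfrsf12a, the TWEAK receptor, 0.89 and 0.37. The linear gains of Tnfrsf12a were 8.20 and 8.80.

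Markers of resident fibroblasts moved beside these matrix genes. All 13 had a negative difference (median -0.20), against 5950 of 11608 of all genes. In Tg 6 fell under Ang II and 1 rose, against 3.67% and 4.45% of all genes. In WT 1 fell and 3 rose, against 7.38% and 7.71%. Their summed level had medians of 485 and 473 scaled FPKM in WT saline and WT Ang II hearts and 660 and 562 in Tg. The Tg saline sums began at 570, just under the highest WT saline sum of 573, and ended at 781, while the Tg Ang II sums ranged from 388 to 691. Dpt, dermatopontin, fell in Tg by 0.44 ± 0.10 with a WT value of -0.02, and Clec3b fell in Tg by 0.73 ± 0.13 with a WT value of -0.25. Pi16, in contrast, rose in WT by 0.77 and had a Tg value of 0.28. Like Fbln1, Dpt, Clec3b and Ogn thus had a fall that was called in Tg alone. Their differences missed the threshold (edgeR, adjusted p = 0.47, 0.50 and 0.57). Unlike that of Fbln1, the WT value of Clec3b was itself negative (-0.25), and a missing call in WT does not show that it was unchanged there. In bulk tissue, fewer cells of a type and less RNA per cell cannot be told apart, and the part of these markers in the matrix results was not tested.

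Genes of antigen presentation and macrophages had median responses of opposite sign in the 2 genotypes, with no called difference. All 6 tested MHC class II genes, which present peptides to T cells, had a negative difference (median -0.59), against 5950 of 11608 of all genes. In edgeR 4 of them had an unadjusted p under 0.05, against 8.03% of all genes. The median response was 0.27 in WT and -0.32 in Tg. None passed in either genotype, against 15.1% of all genes in WT and 8.12% in Tg. H2-Eb1 had medians of 11.2 and 14.9 scaled FPKM in WT and 15.5 and 13.5 in Tg, with a difference of -0.70 ± 0.20 (adjusted p = 0.26). Cd74, the invariant chain, had medians of 33.7 and 39.6 in WT and 42.0 and 33.5 in Tg, with a difference of -0.60 ± 0.18 (adjusted p = 0.29), and H2-Aa had one of -0.58 ± 0.19. Macrophage markers had a median difference of -0.31 over 12 of 15 genes tested, with 9 negative, against 5950 of 11608 of all genes. Their summed level had medians of 120 and 139 in WT and 208 and 199 in Tg. Under saline it ranged from 107 to 136 in WT and from 158 to 435 in Tg. The ranges of both Ang II groups overlapped (89.2 to 240 in WT, 121 to 253 in Tg). C1qb had a difference of -0.50 ± 0.18, Lyz2 of -0.56 ± 0.22 and Adgre1 of -1.11 ± 0.40 (adjusted p between 0.50 and 0.52). Adgre1 was at -0.53 without replicate 5 of the Tg saline males. Of complement and chemokine genes, 13 of 18 differences were negative (median -0.19), against 5950 of 11608 of all genes. Serping1, the C1 inhibitor, fell in Tg by 0.23 and C1ra by 0.38, with WT values of 0.04 and -0.06. Whether the MHC class II and macrophage values moved with the number of macrophages was not tested.

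Among interferon-stimulated, ribosomal protein and cell-cycle genes, some members rose in WT and none passed in Tg, where 8.12% of all genes did. Of 16 interferon-stimulated genes, 6 rose in WT, against 7.71% of all genes, and 14 had a negative difference (median -0.16), against 5950 of 11608. Irf7, a transcription factor of the interferon response, had responses of 0.64 ± 0.13 and 0.26 ± 0.12, and Oas1a 0.56 and 0.13. Bst2 had values of 0.35 and -0.21, neither called. All 28 cytosolic ribosomal protein genes had a negative difference, with a median of -0.16, and 7 rose in WT, against 7.71% of all genes. Rpl3 rose in WT by 0.32 (medians 33.7 and 40.6 scaled FPKM) and had a Tg value of 0.09 (56.3 and 59.7). Rps4x had values of 0.15 and -0.05. The list's median was 0.03 in females alone and -0.34 in males alone. Of 11 cell-cycle genes tested of 16, 5 rose in WT, against 7.71% of all genes. Their median response was 0.82 in WT and 0.18 in Tg. Their levels were low: Top2a, topoisomerase of dividing cells, had medians of 0.166 and 0.304 in WT and 0.291 and 0.454 in Tg, and Ccna2 and Rrm2 had WT responses of 1.64 and 1.60 and Tg values of 0.65 and 0.13. The list's median difference was -0.44, and it was -0.089 without replicate 1 of the WT Ang II males, -0.17 without replicate 3 and -0.18 without replicate 7 of the WT Ang II females. Without that male library the differences of Rrm2 and Ccna2 went from -1.46 and -0.99 to -0.73 and -0.51. Whether the differences within these 3 lists exceed those of other genes was not tested.

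Fatty acid genes had mostly positive differences, with a list median that was -0.031 in males alone. Of 33 genes of fatty acid uptake and oxidation, the main fuel path of the heart, 17 fell under Ang II in WT, against 7.38% of all genes, and 1 fell in Tg, against 3.67%. The median response was -0.19 in WT and -0.07 in Tg. Of the differences, 29 were positive (median 0.10), while 5950 of 11608 of all genes had a negative one. Under saline 28 of the 33 were already lower in Tg, against 20.3% of all genes. Decr1, a reductase of beta-oxidation, fell in WT by 0.24 (medians 71.6 and 63.7 scaled FPKM), and its Tg medians were 48.1 and 47.6, with a difference of 0.24 ± 0.10 (adjusted p = 0.55). Cd36, the fatty acid transporter, had values of -0.15 and 0.04. In linear terms 31 of the 33 responses were smaller in Tg, against 55.8% of all genes. The list's median Tg Ang II level was 112% of the additive and 107% of the multiplicative level. Transcripts of the mitochondrial genome had a median difference of 0.08 over 13 genes, 12 of them positive. mt-Nd1 fell in WT by 0.23, and its Tg value was -0.06. In the glucose list, Ppp1r3b and Pkm fell in WT by 0.65 and 0.16 with Tg values of -0.07 and -0.03. In the list of branched-chain amino acid breakdown, 8 of 18 genes fell in WT and 4 in Tg (7.38% and 3.67% of all genes), and 5 were kept (4.34%). Dld and Hibadh had differences of 0.13 and 0.14.

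**Figure D5:**
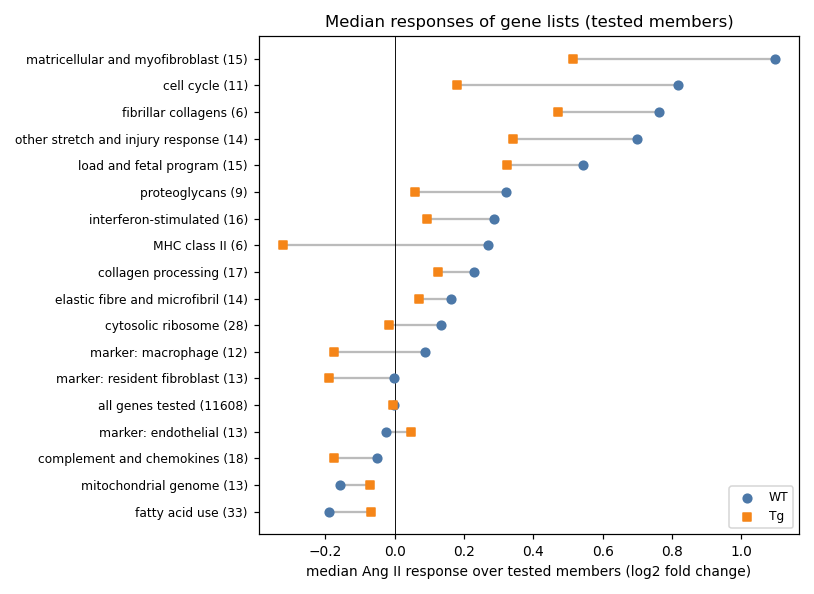
Median log2 response to Ang II over the tested members of each list (number in parentheses) in WT (blue circles) and Tg (orange squares), with all genes tested near 0. Medians for Tg lie nearer 0 than those for WT in the load, matrix, cell-cycle and fatty acid lists, and the MHC class II medians lie on opposite sides of 0 (0.27 and -0.32).

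Sarcomere genes, channels and the renin-angiotensin system held smaller differences. Of 14 sarcomere genes, 5 rose in WT and 2 in Tg (7.71% and 4.45% of all genes), and the median difference was -0.06. Mybpc3, the cardiac form of myosin-binding protein C, rose in WT by 0.29 ± 0.06 (medians 637 and 758 scaled FPKM) and had a Tg value of 0.05 ± 0.06 (808 and 820), with a difference of -0.24 ± 0.08 (adjusted p = 0.46). Tnnc1, cardiac troponin C, had responses of 0.30 and 0.06, and Actn2, alpha-actinin of the Z-disc, rose in both (0.28 and 0.17). Kcnip2, a subunit of the transient outward potassium channel, had values of 0.19 in WT and -0.20 in Tg, neither called, with a difference of -0.39 ± 0.12 (adjusted p = 0.27). Agtr1a, the type 1 receptor of Ang II, fell in WT by 0.34 ± 0.10 (medians 10.5 and 8.21) and had a Tg value of -0.16 ± 0.10 (6.86 and 6.22), with a difference of 0.18 ± 0.14 (adjusted p = 0.76). Ace, the converting enzyme, rose in WT by 0.33 and had a Tg value of 0.16. Tgfb3 rose in WT by 0.54 with a Tg value of 0.20. Endothelial markers, with sums of 393 and 411 in WT and 294 and 301 in Tg (medians), had a median difference of 0.06. Kdr, the main VEGF receptor, had values of -0.35 in WT, where it fell, and -0.10 in Tg, Pecam1 had 0.01 and 0.15, and Notch3, a mural cell receptor, fell in WT by 0.41 with a Tg value of -0.29.

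The difference of responses was estimated in each sex as well. The test of whether it differed between females and males called 0 of 11608 genes (0%) with edgeR, 1081 (9.31%) had an unadjusted p under 0.05, and DESeq2 called 4. Of the 153 large WT rises, 150 had a negative difference in females (median -0.64) and 120 in males (median -0.32). Their choice by the WT response favours negative differences in both sexes. Among large rises chosen in Tg, the share smaller in Tg was 27.3% in males alone. It was 100% in females alone, where few genes were called. Nppa had a difference of -1.74 ± 0.45 in females and -0.92 ± 0.47 in males, and Ankrd1 -1.38 ± 0.35 and -0.35 ± 0.36. Acta1, Xirp2, Col1a2, Col3a1 and Postn had negative values in females (-0.52, -0.23, -0.67, -0.81 and -1.22) and positive ones in males (0.34, 0.10, 0.01, 0.22 and 0.09). The sex terms of these 5 missed the threshold (adjusted p between 0.56 and 0.72). Fbln1 had -0.41 ± 0.13 in females and -0.78 ± 0.14 in males (adjusted p of the sex term = 0.55). In Tg Ang II hearts, its mean was 19.1 ± 1.3 scaled FPKM in 7 females and 12.6 ± 1.0 in 5 males (SD), without overlap. Females were also higher in Tg saline (24.6 ± 3.1 and 18.6 ± 1.6) and WT saline hearts (14.6 ± 0.7 and 12.3 ± 0.9), while WT Ang II hearts had 15.1 ± 2.7 and 14.3 ± 2.5. Fitted alone, females had 660 calls for Ang II in WT and 7 in Tg, and males had 243 in WT and 459 in Tg.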

How the data were processed

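Messenger RNA of the left ventricle was sequenced as poly(A)-selected, dUTP-marked libraries, per the labels' protocols. Cutadapt 1.9, FastQC, HISAT2 2.0.4 and StringTie 1.3.4d are named in the submitters' processing notes. The counting tool, its strand setting and the genome build were not given in the sources used here, so overlapping and antisense genes cannot be told apart with certainty. The count values were deposited by the authors as whole numbers per gene and library and were used as they stood. The FPKM values were deposited by the authors already scaled to transcript length and library size, and were used for levels and for the filter.

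Genes tested (11608 of 35717) reached an FPKM of 1 or more in 5 or more of the 48 libraries. They held at least 98.9% of each library's counts, and the median gene had a mean count of 1194. The model of edgeR 4.0.16 (R 4.3.3) had a mean for each genotype, treatment and sex, and sexes were weighted equally. Counts were scaled by median-of-ratios factors (0.750 to 1.33), and FPKM values by factors of 0.778 to 1.14. Tests were two-sided, with Benjamini-Hochberg adjustment across every gene tested and calls at an adjusted p under 0.05. The linear difference used a Wald test on the fitted means from that fit, by the delta method, and 5 genes with a fitted group mean of 0 were left out of it. On counts simulated for the 11608 genes with the same dispersion for all, with known log2 differences of responses of 0.75 and 1.5, the fit called 91% and 99% of the changed genes and 0.196% of the unchanged ones. Real genes differ in spread, and the simulation held more changed genes than were called here, so these shares do not carry over to single genes. An uncalled difference of that size, as for Nppa, Mfap4 or Cilp, is not shown to be absent. Libraries share no pairing numbers. Of the table's genes, 35599 were found in GENCODE M21 (GRCm38), 91.6% of them at identical positions. Promoter letters came from RefSeq.

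Classes followed from the calls. Blunted means a called difference with a WT response called and a Tg response smaller or not called. Gained means a called difference with only the Tg response called, reversed means both called with opposite signs, and kept means no called difference with both called in one direction. Genes named were Larp6 and 11 load and matrix genes, the 10 smallest p values in each direction on the log2 scale, up to 8 in each direction on the linear scale, reversed genes, up to 8 kept genes, and up to 3 members of each list with the smallest p. The p value rules on either scale and the rule for kept genes asked for a mean of at least 5 scaled FPKM in a group. The text gives a selection of these. The groups, lists and rules were chosen with earlier results of these data known, and no list was tested as a set. Alternatives were TMM scaling, library size alone, quantile normalization, DESeq2 1.42.0, limma 3.58.1 on log2(scaled FPKM + 1) and + 0.1, other filters, all 50 libraries, a term for runs of library numbers (a gap over 20 starts a run), 4 group means with sex added, each sex alone, an unequal-variance linear test, and leaving out each library.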

Additional observations from a re-analysis of the deposited data

Results flagged for a closer look

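Within groups of 1 genotype, treatment and sex (5 to 7 libraries), the highest and lowest libraries were examined by Dixon's 95% criterion. The highest library stood apart from the rest in 16 of 120 gene and group pairs examined. The criterion gives about 1 in 20 by chance for normally distributed values. Levels were taken here without logs, so that rate may not apply. The pairs are not independent, since the genes share libraries. All 16 were high values. Replicate 7 of the WT Ang II females gave 5 of them: Nppa at 1143 scaled FPKM (the others 245 to 556), Myh7 at 553 (124 to 218), Ankrd1 at 1047 (367 to 586), Postn at 36.9 (4.03 to 15.2) and Ccn2 at 51.4 (18.4 to 32.1). Replicate 1 of the WT Ang II males gave Acta1 at 953 (195 to 376) and Xirp2 at 86.3 (45.8 to 57.0).

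The remaining 9 were spread over 9 libraries. In WT saline females they were Nppa at 188 (90.4 to 117) and Mybpc2 at 4.51 (2.72 to 3.05), and in WT saline males Ankrd1 at 616 (207 to 317). In WT Ang II females they were Tmem30a at 13.4 (12.0 to 12.4) and Mybpc2 at 8.75 (6.61 to 7.35). In Tg saline hearts they were Nppb at 665 in a male (164 to 209), and Col3a1 at 41.3 (10.1 to 18.7) and Ccn2 at 121 (48.3 to 75.5) in females. In Tg Ang II females, Acta1 stood at 664 (150 to 298).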

How the results depend on the processing

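No paired analysis was possible because no library numbers are shared between groups. The count of 3 genes called on the log2 scale was 1 with no filter on low genes, 0 with a term for runs of neighbouring library numbers, 1 in females alone, 0 in males alone, 6 with quantile normalization and 25 with DESeq2. It ran from 1 to 8 when single libraries were left out, with 1 without replicate 1 of the Tg saline females, replicate 5 of the Tg saline males, replicate 7 of the Tg Ang II females or replicate 5 of the WT saline females. It was 5 to 8 without replicate 3 or 4 of the WT Ang II females, replicate 3 of the WT Ang II males, replicate 3 of the Tg saline males or replicate 5 of the Tg Ang II males. The linear count of 3 was 1 with library size alone, 1 with no filter, 0 in females and 1 in males, and ran from 1 (in 18 of 48 fits) to 6 over single libraries left out, with 6 without replicate 3 of the WT Ang II females and 5 without replicate 2 of the Tg Ang II females or replicate 3 of the WT saline males. Halving the animals by sex leaves fewer samples, and the cause of the other shifts was not tested. The 25 calls of DESeq2 held the 3 of edgeR, and also Gm49909, Gm15564 and Gm20716, whose log2 values were extreme. The three-way test by sex gave 4 calls with DESeq2, and 0 to 1 with edgeR over libraries left out.

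Fbln1 passed without any 1 library (adjusted p at most 0.0066), but missed the threshold on the log2 scale with the term for library numbers (0.17), in females alone (0.50) and in males alone (0.055). Tmem30a lost its log2 call in 5 of 48 such fits and Mybpc2 in 9, with adjusted p values up to 0.069 and 0.071. Both missed it without replicate 1 of the Tg saline females, replicate 5 of the Tg saline males, replicate 7 of the Tg Ang II females or replicate 5 of the WT saline females. Tmem30a also missed it without replicate 3 of the WT saline females, and Mybpc2 without replicate 1 or 2 of the WT saline females, replicate 1 of the WT saline males, or replicate 1 or 4 of the Tg Ang II males. On the linear scale, Tmem30a missed it in 19 of 48 and Ttc7 in 27. With library size alone Tmem30a had an adjusted p of 0.54, and with no filter 0.22.

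Calls for Ang II in WT numbered 1098 with an FPKM of at least 5, 660 in females and 243 in males. Calls in Tg numbered 605 with no filter, 7 in females and 459 in males, and ran from 567 (without replicate 5 of the Tg Ang II males) to 1046 over libraries left out. Kept genes numbered 317 with no filter, 4 in females and 83 in males. The share of large Tg rises that were smaller in Tg was 100% in females and 27.3% in males.

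Of 1165 values for the genes named, 1121 kept their sign and their side of the threshold, and of 4363 with 1 library left out, 4303 did. With library size alone the log2 differences were -0.033 for Aldh2, -0.027 for Otulin and -0.015 for Cfl2. With all 50 libraries they were -0.078 for Otulin and -0.0089 for Cfl2. With an FPKM of at least 5, Des was at 0.0019 and the cell-cycle median at 0.044. With the term for library numbers, Acta1 was at 0.17, Xirp2 at 0.022, Sra1 at 0.070, Aldh2 at -0.013, Des at 0.010 and Cfl2 at -0.00049, and the medians were 0.013 for fibrillar collagens, -0.0064 for the mitochondrial genome and 0.039 for complement and chemokines. In females alone Otulin was at -0.046, Cfl2 at -0.031 and the ribosome median at 0.029. In males alone Acta1 was at 0.34, Xirp2 at 0.098, Col1a2 at 0.010, Col3a1 at 0.22, Postn at 0.084, Aldh2 at -0.15, Des at 0.049 and Pdlim5 at 0.069, with medians of 0.044 for the load program, 0.23 for fibrillar collagens and -0.031 for fatty acid use. Quantile normalization on log2(FPKM + 1) gave 0.029 for Ltbp2. Leaving out single libraries gave -0.27 to 0.14 for Acta1, -0.14 to 0.016 for Xirp2, -0.063 to 0.016 for Sra1, -0.020 to 0.051 for Aldh2, -0.059 to 0.021 for Des, -0.016 to 0.068 for Otulin, -0.059 to 0.0029 for Pdlim5, and -2.10 to 188 for the linear difference of Nppa, which was negative without replicate 5 of the Tg Ang II males. The median standard error of a log2 difference was 0.099, which limits what small differences could pass. No list median plotted changed sign under TMM, library size alone or quantile normalization.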

Other observations

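None of the genes in these further groups had a difference of responses called by edgeR or DESeq2. Among 16 clock genes the median response to Ang II was -0.01 in WT and 0.01 in Tg, and the median difference was 0.06. None was called in either genotype, against 15.1% of all genes in WT and 8.12% in Tg. Among 10 immediate early genes the median response was -0.25 in WT and 0.04 in Tg, with no calls against the same shares. Of their differences 8 were positive (median 0.24), while 5950 of 11608 of all genes had a negative one. Genes of endoplasmic reticulum and integrated stress had a median difference of -0.06 over 19 genes. Of these 3 rose in WT and none in Tg (7.71% and 4.45% of all genes). Targets of NRF2, the regulator of antioxidant genes, had a median difference of -0.04 over 14 genes. Already under saline, 8 were higher in Tg than in WT hearts, against 20.3% of all genes. The nuclear genes of the respiratory chain had a median difference of -0.02 over 40 genes, and 6 fell in WT and 3 in Tg (7.38% and 3.67% of all genes). Of 12 non-fibrillar collagen genes 4 rose in WT and 3 in Tg (7.71% and 4.45% of all genes), with a median difference of -0.07. TGF-beta signalling genes had a median difference of -0.05 over 16 genes, calcium cycling and ion channel genes 0.02 over 23, heart muscle markers 0.05 over 13 and mural markers 0.0082 over 11. Of 6 neutrophil markers 1 was tested, S100a9, with a difference of -2.27 from sums of at most 5.81 scaled FPKM.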
